A study of Homo sapiens with 18 samples.

Results

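The genes described here are 37 of 27574 measured genes, chosen by name as the amino acid stress program of the transcription factor ATF4. The choice was made with earlier results of these data known, so the set is described and not tested. All 37 had values, and 36 averaged at least 100 normalized counts over the samples. The exception was ALDH1L2, a mitochondrial folate enzyme gene, at 8.07. ATF4 is made when eIF2α, a subunit of a translation initiation factor, is phosphorylated by kinases that sense scarce amino acids, unfolded protein, heme shortage or double-stranded RNA. It binds, with C/EBP partners, to composite sites called C/EBP-ATF response elements and switches on genes that import, make and charge amino acids, along with stress factors that end the response or turn it towards cell death. In prostate cancer, ATF4 and the carriers of leucine and glutamine are known for their part in tumour growth.

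The cells were LNCaP, a line from a human prostate cancer that responds to androgen. They were kept for 48 h in serum stripped with charcoal, which removes steroids, and then treated for 6 h in 6 groups of 3 biological replicates, 18 samples in all. The vehicle group received ethanol and DMSO, the solvents. The DHT group received dihydrotestosterone, the potent natural androgen, at 10 nM, with DMSO. A pair of groups received DHT at 10 nM with either 1.5 µM enzalutamide, an antiandrogen used in the clinic, or 3 µM VPC-13789, a compound known here by its code. The last pair received enzalutamide or VPC-13789 without DHT, in arms for which the labels state no separate dose. This pair carries sample numbers in a block apart from the other groups. Whether it was cultured or sequenced apart is not given in the sources used here. A batch therefore cannot be told apart from treatment where this pair is set against the other groups. That covers each compound alone, the interactions and the DHT effects under a compound. Doses followed published IC90 values per the labels, so the compounds were given at different concentrations.

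The values are the authors' own DESeq2 comparisons, each a log2 fold change with its standard error (SE). No values per sample were analysed, so depth per library is unknown, and p-values reflect the spread between cultures of 1 line. The level of each gene in each group was recovered from its average normalized count and its 5 fold changes, and is given with the SE of the fit. Of the prostate luminal markers, KRT8 averaged 17770 and KRT18 11832 normalized counts. Of the markers of other cell types with a row, KRT14 averaged 7.60 and COL1A1 316, while DCN, LUM, PTPRC, CD68 and LYZ averaged 0.218 to 1.10. KRT5, TP63, COL1A2 and CD3E had no row among the genes read here. In bulk RNA, fewer cells expressing a gene and less RNA per cell cannot be told apart.

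The short site that ATF4 and its partners bind is shown first, because it is the sequence through which ATF4 is known to act. The letters TGATGNAA and their reverse complement TTNCATCA were searched on both strands of RefSeq promoter windows on GRCh38.p14, from 250 bases before to 50 after each start, 300 in all. Windows were found for 30 of the 37 genes. A match was present in 13 of those 30 genes (43.3%), against 1217 of 27305 genes with a window (4.46%). Counted by window, the shares were 26.5% of 49 windows and 3.62% of 35116. The genes were chosen as targets of ATF4, so these shares do not test whether ATF4 acts on them. The matches are printed on the strand of the gene, 5′ to 3′, with the 8 matched letters in capitals.

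ATF3 (chr1:212565205-212565234, plus strand): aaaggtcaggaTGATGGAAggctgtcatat
CEBPG (chr19:33374060-33374089, plus strand): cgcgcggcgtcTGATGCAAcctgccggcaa
CHAC1 (chr15:40953251-40953280, plus strand): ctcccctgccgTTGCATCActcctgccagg
ASNS (chr7:97872458-97872487, minus strand): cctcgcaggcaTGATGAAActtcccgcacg
SLC3A2 (chr11:62881725-62881748, plus strand): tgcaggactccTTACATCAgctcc
SLC7A1 (chr13:29595663-29595692, minus strand): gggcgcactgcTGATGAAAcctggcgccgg
SLC1A5 (chr19:46784893-46784922, minus strand): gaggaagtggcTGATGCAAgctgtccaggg
SLC1A4 (chr2:64989381-64989410, plus strand): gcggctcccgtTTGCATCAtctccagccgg
CARS (chr11:3057407-3057436, minus strand): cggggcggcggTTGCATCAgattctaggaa
AARS (chr16:70289675-70289704, minus strand): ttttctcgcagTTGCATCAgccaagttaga
GARS (chr7:30594834-30594863, plus strand): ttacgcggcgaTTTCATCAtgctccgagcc
NARS (chr18:57621804-57621833, minus strand): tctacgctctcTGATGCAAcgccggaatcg
MARS (chr12:57488053-57488082, plus strand): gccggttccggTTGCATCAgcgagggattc

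TTGCATCA or its complement TGATGCAA, the form with C at the free position, made up 8 of the 13 matches. The matches were in transporter, synthetase and stress genes and in ASNS, and the serine, glycine and one-carbon enzymes with a window had none. The 7 genes with no window were NUPR1, PSPH, SHMT2, ALDH1L2, PYCR1, SLC7A11 and VEGFA. A match is a run of letters and not a measured binding event, and no binding data were analysed.

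None of the 37 genes changed in any of the 5 comparisons the authors made, at an adjusted p under 0.05 from DESeq2. The share of all tested genes called was 1.87% for DHT against vehicle, 0.428% for enzalutamide with DHT against DHT, 0.275% for VPC-13789 with DHT against DHT, 0.00363% for enzalutamide without DHT and 0% for VPC-13789 without DHT. At an unadjusted p under 0.05 the genes of the program numbered 4 with DHT (2 higher, 2 lower), 2 with enzalutamide and DHT (1 higher, 1 lower), 7 with VPC-13789 and DHT (5 higher, 2 lower), and 0 with either compound alone. The same count over all genes was 4.43%, 2.13%, 5.48%, 0.675% and 0.769% of 27574. Over the 10819 genes averaging at least 100, as 36 of the 37 did, it was 629, 258, 925, 20 and 33. Of the 925 with VPC-13789 and DHT, 233 were higher and 692 lower. The androgen response itself was present: all 5 androgen control genes read (KLK3, KLK2, TMPRSS2, FKBP5 and SGK1) rose with DHT, and 3 of the 5 (TMPRSS2, FKBP5 and SGK1) fell when either compound was added to DHT.

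The sizes that these data could bound differed between genes. The median SE over the 37 genes was 0.28 on the log2 scale. The 95% interval of the change lay inside a 2-fold change in both directions for 32 of 37 genes with DHT, 34 with enzalutamide and DHT, 20 with VPC-13789 and DHT, 34 with enzalutamide alone and 28 with VPC-13789 alone. Inside 1.5-fold the counts were 14, 15, 9, 15 and 12 of 37.

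**Figure D1:**
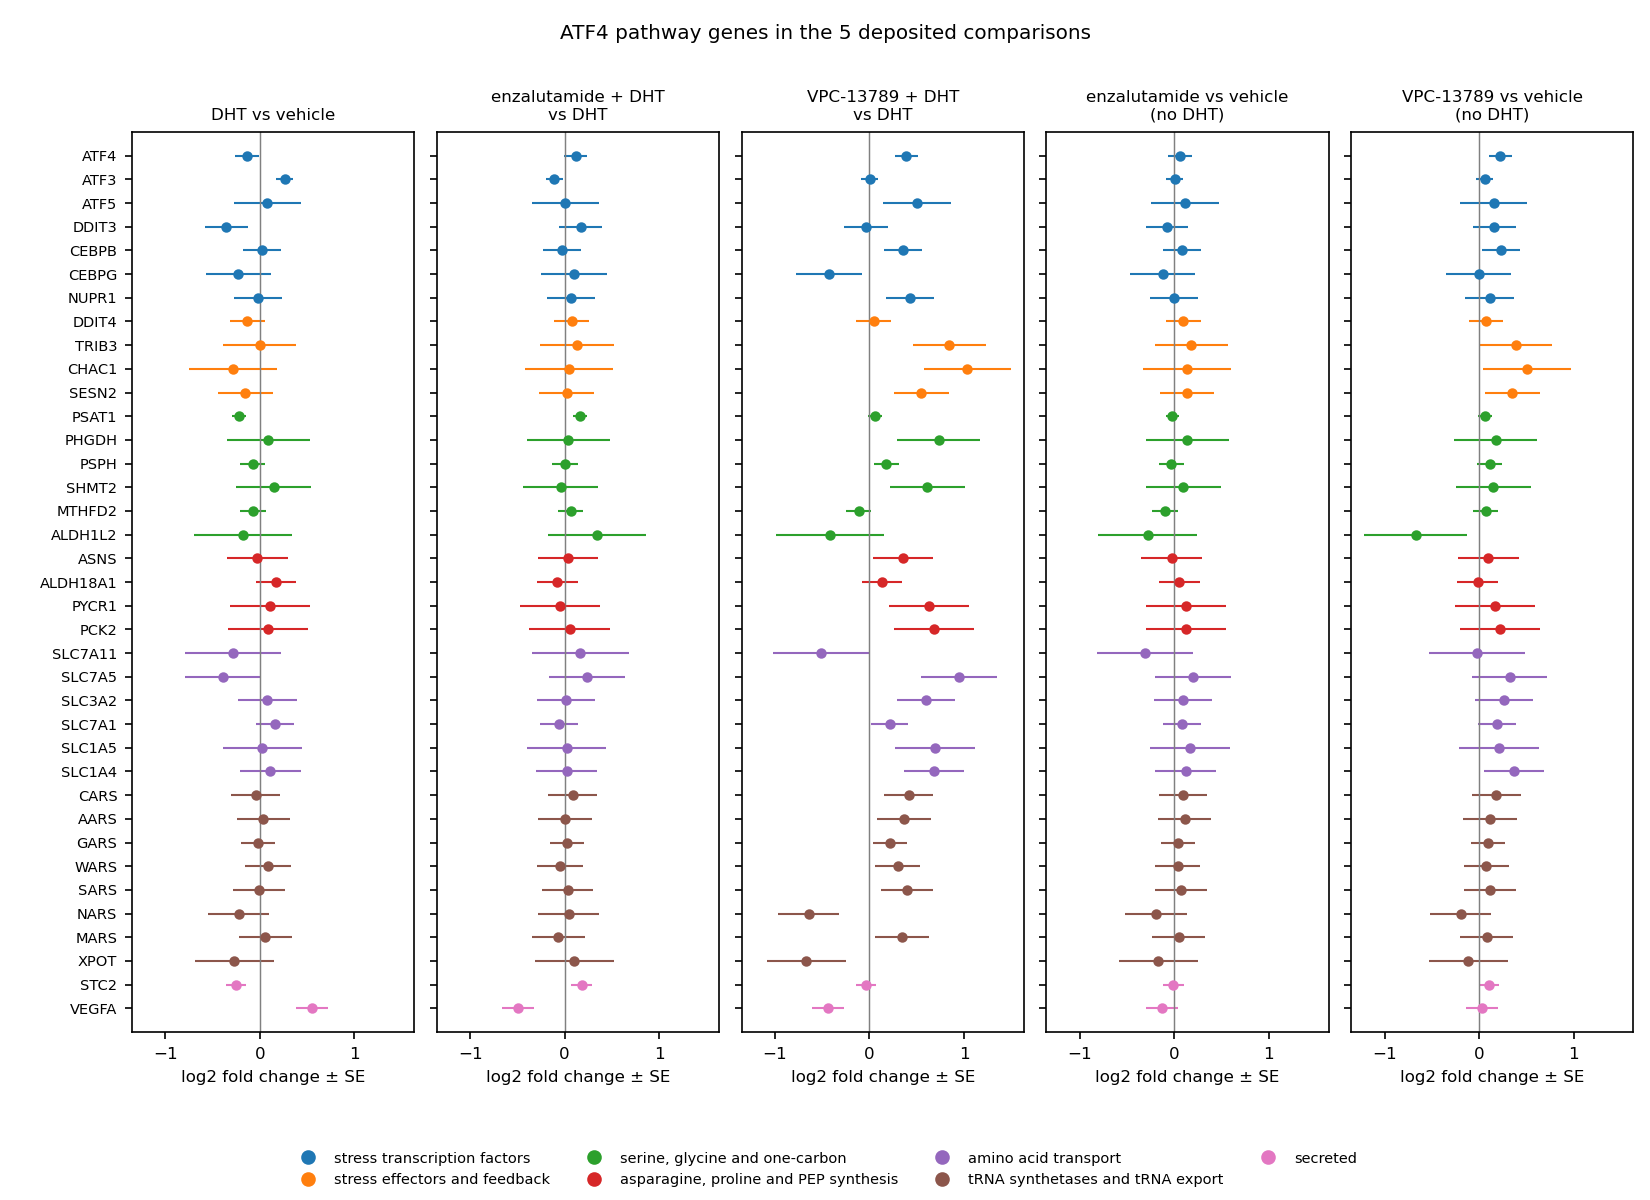
Log2 fold change (x axis, ± SE) of each of the 37 genes (rows, coloured by role) in the 5 comparisons made by the authors. From left to right 16, 28, 28, 24 and 31 of the 37 points lie above 0. Of all genes averaging at least 100, 52.8%, 42.9%, 49.0%, 48.8% and 49.1% were above 0. The points of VPC-13789 with DHT range from -0.67 to 1.04, and no gene passed the threshold in any panel.

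ATF4 itself was abundant in every group. Its level was 6903 ± 422 normalized counts in vehicle, 7206 ± 441 with enzalutamide and 8072 ± 493 with VPC-13789, and with DHT it was 6288 ± 385 alone, 6818 ± 417 with enzalutamide and 8242 ± 504 with VPC-13789 (± SE of the fit, n = 3). The groups given VPC-13789 were the highest, with and without DHT, and the DHT group was the lowest. In the authors' deposited table the change with VPC-13789 and DHT against DHT was 0.39 on the log2 scale (SE 0.12, p = 0.00178, DESeq2 adjusted p = 0.257), so it did not pass over all genes. Without DHT the authors' deposited table gives 0.23 (SE 0.12, p = 0.0704, adjusted p = 1). ATF4 is controlled mainly at translation, which RNA levels do not show. The gene spans chr22:39519695-39522685 on the plus strand (GRCh38, GENCODE 29).

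The other stress transcription factors showed no common direction. ATF3, an early stress factor, was at 532 to 554 normalized counts in the 3 groups without DHT and at 591 to 639.5 in the 3 groups with it. The authors' deposited table gives ATF3 a log2 change of 0.26 with DHT (SE 0.09, p = 0.00402, DESeq2 adjusted p = 0.164). DDIT3, which encodes the pro-death factor CHOP, was at 179.6 ± 19.8 in vehicle, 170.4 ± 18.9 with enzalutamide and 201 ± 22.0 with VPC-13789, and with DHT at 141 ± 15.8 alone, 158 ± 17.6 with enzalutamide and 137 ± 15.5 with VPC-13789. The authors' deposited table gives DDIT3 a log2 change of -0.03 for VPC-13789 with DHT against DHT, with a 95% interval of -0.49 to 0.42. Of its exon bases 27.2% overlap MARS on the opposite strand, which averaged 5678 normalized counts, and whether the counting used strand is not given in the sources used here. ATF5 (0.50), NUPR1 (0.43) and CEBPB (0.35) were above 0 in that comparison and CEBPG, a C/EBP partner, below it (-0.43), all 4 with unadjusted p over 0.05. ATF5 has the same limit as DDIT3: 21.2% of its exon bases overlap NUP62 on the opposite strand, which averaged 2145.5 normalized counts.

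Of the 4 stress effectors and feedback genes, all were above 0 in each of the 4 comparisons of a compound, with 2 at an unadjusted p under 0.05 for VPC-13789 with DHT and 0 in the other 3. CHAC1, whose enzyme degrades glutathione, was at 257 ± 58.2 normalized counts in vehicle, 282 ± 63.8 with enzalutamide, 365 ± 82.5 with VPC-13789, 211 ± 48.0 with DHT, 218 ± 49.5 with enzalutamide and DHT, and 433 ± 97.6 with VPC-13789 and DHT. The last group was 2.05 times the DHT group, the widest contrast between any pair of groups among the 36 genes averaging at least 100. In the authors' deposited table that change was 1.04 on the log2 scale (SE 0.46, p = 0.0252, DESeq2 adjusted p = 0.406). TRIB3, a pseudokinase that feeds back on ATF4, was at 1898 ± 362 with DHT, 2078 ± 396 with enzalutamide and DHT, and 3407 ± 648 with VPC-13789 and DHT. Without DHT it was at 1902 ± 362 in vehicle, 2157 ± 411 with enzalutamide and 2487 ± 473 with VPC-13789. The authors' deposited table gives TRIB3 0.84 (SE 0.39, p = 0.0298, adjusted p = 0.406) for VPC-13789 with DHT against DHT. SESN2, an inhibitor of mTORC1 that senses leucine, was at 1099 ± 155 in vehicle, 1206 ± 170.3 with enzalutamide and 1405 ± 198 with VPC-13789, and with DHT at 989 ± 139.8 alone, 1004 ± 142 with enzalutamide and 1447 ± 204 with VPC-13789. Both VPC-13789 groups were thus the highest for SESN2. The authors' deposited table gives it 0.55 (SE 0.29, p = 0.0566) for VPC-13789 with DHT against DHT. DDIT4, another inhibitor of mTORC1, lay between 1296 and 1521 normalized counts in all 6 groups.

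Among the serine, glycine and one-carbon enzymes, PSAT1 was the most precisely measured of the 37 genes. It encodes the aminotransferase of the serine pathway. Its level was 8122 ± 288 in vehicle, 8009.7 ± 284 with enzalutamide, 8471 ± 300.4 with VPC-13789, 6980.3 ± 248 with DHT, 7817 ± 278 with enzalutamide and DHT, and 7279 ± 259 with VPC-13789 and DHT. The 3 groups without DHT were above the 3 groups with it. In the authors' deposited table PSAT1 had a log2 change of -0.22 with DHT (SE 0.07, p = 0.00258, DESeq2 adjusted p = 0.112) and 0.16 when enzalutamide was added to DHT (SE 0.07, p = 0.0244, adjusted p = 1). PHGDH, the first enzyme of the serine pathway and the most abundant of the 37 genes by count, was at 16096 to 18174 in 5 groups and at 28406 ± 6112 with VPC-13789 and DHT. SHMT2, the mitochondrial serine hydroxymethyltransferase, was likewise at 12452 to 13815 in 5 groups and 21075 ± 4101 in that one. The wide SE left both with unadjusted p over 0.05 (0.0961 and 0.123 in the authors' deposited table). PSPH and MTHFD2 differed between their highest and lowest groups by 1.14 and 1.19 times.

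For asparagine, proline and phosphoenolpyruvate synthesis, ASNS, the asparagine synthetase gene and the classical target of the pathway, stayed at 341 to 372 normalized counts in 5 groups and reached 438 ± 68.5 with VPC-13789 and DHT. The authors' deposited table gives ASNS 0.36 for that comparison (95% interval -0.27 to 0.98, DESeq2 adjusted p = 0.441). Of its exon bases 44.6% are shared with AC079781.5 on the same strand, which averaged 6.25. PCK2, the mitochondrial phosphoenolpyruvate carboxykinase, was at 6662 to 7779.7 in 5 groups and at 11348 ± 2362 with VPC-13789 and DHT. PYCR1 and ALDH18A1, the proline enzymes, had 0.63 and 0.13 in that comparison. None of these 4 genes passed an unadjusted p of 0.05 in any of the 5 comparisons.

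In each of the 4 comparisons of a compound, 5 of the 6 amino acid transport genes were above 0, but not always the same 5. The gene below 0 was SLC7A1 for enzalutamide with DHT against DHT (-0.06), where SLC7A11 was above 0. Elsewhere it was SLC7A11. SLC7A5, the light chain of the large neutral amino acid transporter, was at 337 ± 66.1 in vehicle, 386 ± 75.5 with enzalutamide, 421 ± 82.4 with VPC-13789, 257 ± 50.6 with DHT, 302 ± 59.3 with enzalutamide and DHT, and 496 ± 96.8 with VPC-13789 and DHT. The authors' deposited table gives SLC7A5 a log2 change of 0.95 for the last against DHT (SE 0.40, p = 0.0181, DESeq2 adjusted p = 0.406). Its heavy chain SLC3A2 had 0.60, the glutamine carrier SLC1A5 0.69 and the neutral amino acid carrier SLC1A4 0.68. The cationic amino acid carrier SLC7A1 had 0.21. Of these 4, SLC1A4 alone had an unadjusted p under 0.05 (0.0326 in the authors' deposited table, adjusted 0.406). SLC7A11, the cystine importer, went the other way, from 966 ± 242 with DHT to 677 ± 169.6 (log2 -0.51, p = 0.316 in the authors' deposited table).

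The tRNA synthetase and tRNA export genes split in the same comparison. CARS, AARS, GARS, WARS, SARS and MARS, which charge the tRNAs of cysteine, alanine, glycine, tryptophan, serine and methionine, lay between 0.22 and 0.42. NARS, the asparagine enzyme, and XPOT, the tRNA exporter, lay at -0.64 and -0.67. NARS was at 3835 to 4477 normalized counts in 5 groups and at 2457 ± 389.9 with VPC-13789 and DHT. In the authors' deposited table this was p = 0.0472 before adjustment and 0.406 after (DESeq2). NARS carries the same 8 letters TGATGCAA as SLC1A5 in its window above, while SLC1A5 had 0.69. Over the 13 genes with a match the median log2 change in this comparison was 0.36, and over the 17 with a window and no match 0.35.

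Of the 2 secreted factors, VEGFA was highest and STC2 lower with DHT than in vehicle. VEGFA, the angiogenic growth factor, was at 1249.8 ± 104 in vehicle and 1829 ± 151 with DHT, and at 1299.7 ± 108 and 1352 ± 112 when enzalutamide or VPC-13789 was added to DHT. Without DHT it was at 1142 ± 95.1 with enzalutamide and 1275 ± 106 with VPC-13789. The DHT group was the highest, and the other 5 groups lay between 1142 and 1352. The authors' deposited table gives VEGFA 0.55 with DHT (SE 0.17, p = 0.00115, DESeq2 adjusted p = 0.0588), the nearest to the threshold of the 37 genes in any of the 5 comparisons. Adjusted over genes averaging at least 10 normalized counts, the p was 0.0463. The authors' deposited table gives -0.49 for enzalutamide with DHT against DHT (p = 0.00355, adjusted p = 0.446) and -0.44 for VPC-13789 with DHT (p = 0.00991, adjusted p = 0.406). These comparisons share the DHT group.

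STC2, which encodes the secreted glycoprotein stanniocalcin 2, was the only gene of the 37 called in any comparison, and that was a derived one. Its level was 968 ± 51.4 in vehicle, 962 ± 51.1 with enzalutamide and 1039.7 ± 55.0 with VPC-13789, and with DHT it was 813 ± 43.7 alone, 922 ± 49.1 with enzalutamide and 792 ± 42.7 with VPC-13789. In cells given VPC-13789, STC2 fell 1.31-fold with DHT (log2 -0.39, SE 0.11, adjusted p = 0.0464 by a Wald test on the DESeq2 values, with 0.772% of all genes called). The groups compared there lie in separate blocks of sample numbers, so a batch cannot be told apart from DHT. Without a compound the authors' deposited table gives -0.25 for DHT (SE 0.11, p = 0.0204, adjusted p = 0.550), and in enzalutamide-treated cells the derived DHT effect was -0.06 (95% interval -0.27 to 0.15). The effects with VPC-13789 and without a compound were not shown to differ: the interaction was -0.14, with a 95% interval of -0.44 to 0.16 and an adjusted p of 1 (Wald test on the DESeq2 values). STC2 spans chr5:173314713-173329503 on the minus strand.

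**Figure D2:**
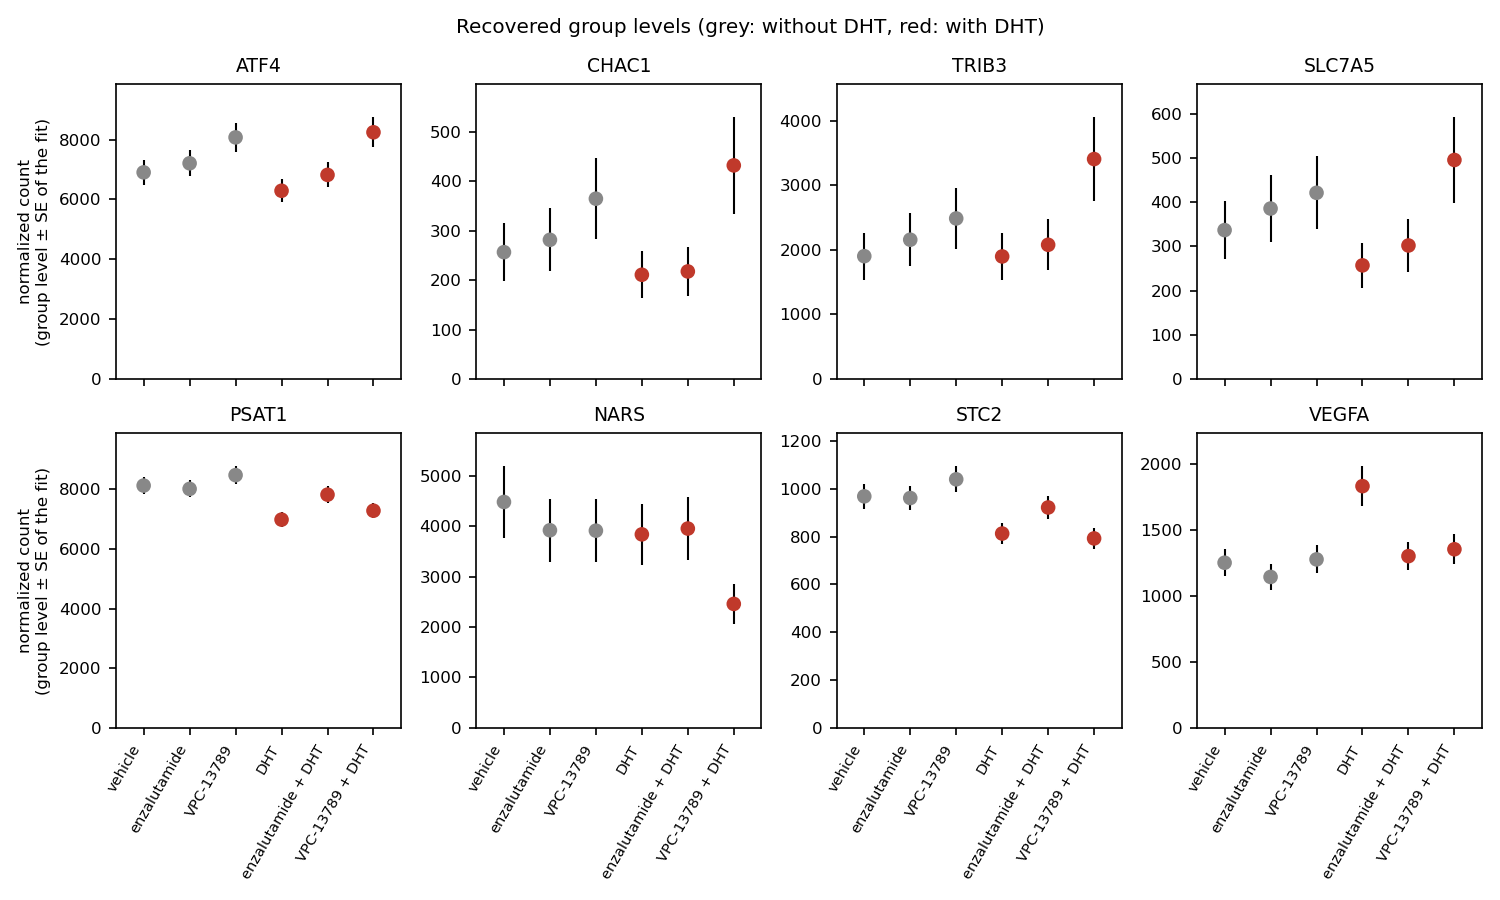
Level of 8 genes in the 6 groups (y axis, normalized count, starting at 0; points are group levels recovered from the deposited values, bars ± SE of the fit, 3 replicates a group; grey without DHT, red with DHT). CHAC1, TRIB3 and SLC7A5 are highest with VPC-13789 and DHT (433, 3407 and 496), NARS is lowest there (2457), and VEGFA stands out with DHT alone (1829).

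VPC-13789 and enzalutamide were set against each other in 2 pairs of groups, with DHT and without it, at the doses above, which differ. With DHT, 0 of 37 genes passed after adjustment (0.0109% of all genes). An unadjusted p under 0.05 was found for 5.49% of all genes, and for 780 of the 10819 averaging at least 100 (318 higher, 462 lower). Of the 37 genes, 5 had such a p (3 higher and 2 lower with VPC-13789). Those 5 were ATF4 (0.27, 95% interval 0.03 to 0.52), CHAC1 (0.99, 0.08 to 1.90), SLC1A4 (0.66), NARS (-0.68) and STC2 (-0.22), each with a Wald adjusted p of 0.510 on the DESeq2 values. For TRIB3 the interval was -0.05 to 1.48 and for ASNS -0.31 to 0.95, so a 2-fold excess with VPC-13789 was not bounded for TRIB3. Without DHT, 0 of 37 were called (0% of all genes) and 0 had an unadjusted p under 0.05 (0.914% of all genes). The number of the 37 genes above 0 was 27 with DHT and 33 without it, against 50.8% and 54.1% of the 10819 genes averaging at least 100. Their median log2 change was 0.33 with DHT and 0.10 without it, against 0.01 and 0.01 for those genes, and was not tested. The 95% interval of the difference lay inside 2-fold for 20 of 37 genes with DHT and for 34 without it. The compound effects with and without DHT were also set against each other: 0 of 37 genes were called in either interaction by the Wald test, with 0 at an unadjusted p under 0.05 in both. Over all genes 0.0762% were called for the enzalutamide interaction and 0% for that of VPC-13789, and 1.29% and 1.43% had an unadjusted p under 0.05. The DHT effect in enzalutamide-treated cells also had 0 of 37 called and 0 at an unadjusted p under 0.05, against 0.464% and 2.35% of all genes. In VPC-13789-treated cells 6 had an unadjusted p under 0.05 (1 higher, 5 lower), against 6.70% of all genes. Of the 10819 genes averaging at least 100, 1009 had such a p there (414 higher, 595 lower).

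As a set, described and not tested, the 37 genes had a median log2 change of 0.35 with VPC-13789 and DHT against DHT, where all 10819 genes averaging at least 100 had -0.02. The medians were -0.02 with DHT, 0.04 with enzalutamide and DHT, 0.06 with enzalutamide alone and 0.11 with VPC-13789 alone, against 0.01, -0.02, 0.00 and 0.00 for all genes. The number of the 37 genes above 0 was 28 with VPC-13789 and DHT, 28 with enzalutamide and DHT, 31 with VPC-13789 alone, 24 with enzalutamide alone and 16 with DHT. In the same order, 49.0%, 42.9%, 49.1%, 48.8% and 52.8% of the 10819 genes averaging at least 100 were above 0. Of the 36 genes averaging at least 100, 25 had their highest level with VPC-13789 and DHT (69.4%, against 44.1% of all genes) and 7 their lowest there (19.4%, against 43.4%).

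Transcript GC content moved with these changes. Its median was 54.8% over the 37 genes, from 35.4% in SLC7A11 to 66.2% in CEBPB, and 49.6% over 10777 nuclear genes averaging at least 100. In VPC-13789 with DHT against DHT, Spearman's rho between log2 change and GC content was 0.67 over 36 genes of the program and 0.83 over all 10777 genes, which share the same libraries. Of the 27 genes above the GC median of all genes 24 were above 0, with a median of 0.42, and of the 10 at or below it 4 were above 0, with a median of -0.26. The relation was also present over all genes with enzalutamide alone (0.78), VPC-13789 alone (0.75), DHT (0.50) and enzalutamide with DHT (-0.32). NARS (44.3%), XPOT (40.8%), SLC7A11 (35.4%) and CEBPG (41.9%), the genes furthest below 0 apart from VEGFA and the low-count ALDH1L2, were low in GC, and CHAC1 (61.8%), TRIB3 (62.0%) and SLC7A5 (60.3%) were high.

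Within-group variation moved with GC content as well. The coefficient of variation between replicates, from the fitted dispersion, had a median per GC bin of 49.5% in the lowest bin, 12.9% near a GC of 50.4% and 29.4% in the highest. Over the 36 genes it ran from 6.05% in PSAT1 to 43.2% in SLC7A11, with a median of 24.0%, against 22.4% for all genes. PSAT1 was thus far below the 22.4% of genes of like GC content.

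**Figure D3:**
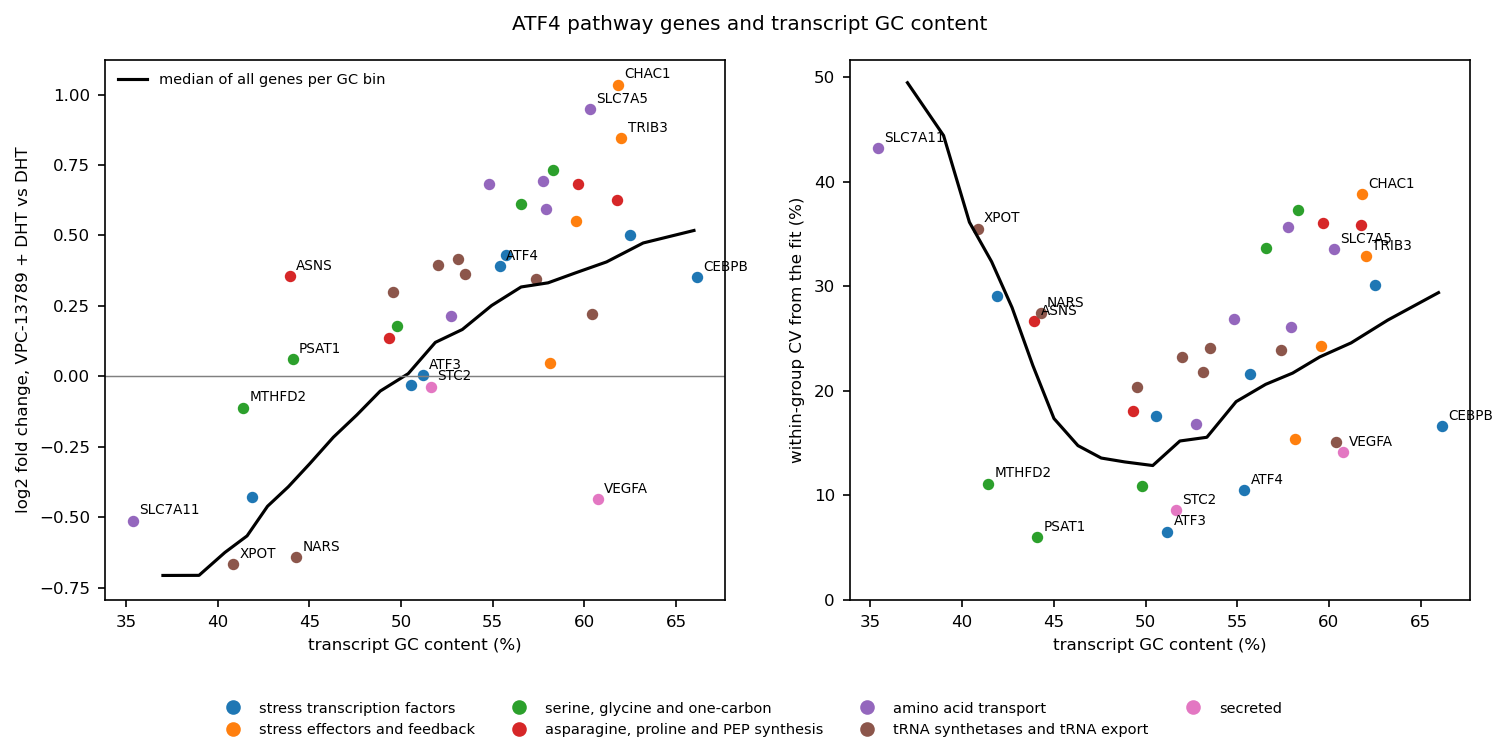
Left, log2 fold change for VPC-13789 with DHT against DHT; right, within-group coefficient of variation (%), both against transcript GC content (%) for the 36 genes averaging at least 100, coloured by role. The black line is the median of all genes per GC bin; most of the genes follow its slope on the left (rho 0.67), and VEGFA lies far below it.

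With the median change of genes of like GC content subtracted, the median of the 37 genes in VPC-13789 with DHT against DHT was 0.19 in place of 0.35, and 0.18 and 0.19 for the genes above and at or below the GC median. ATF4 was then at 0.14 (95% interval -0.11 to 0.38), CHAC1 at 0.63 (-0.28 to 1.54), TRIB3 at 0.44 (-0.32 to 1.20), SLC7A5 at 0.58 (-0.20 to 1.37) and NARS at -0.25 (-0.88 to 0.38). PSAT1 (0.45, adjusted p = 2.29e-07) and MTHFD2 (0.45, adjusted p = 0.0356) passed as higher and VEGFA (-0.84, adjusted p = 0.000140) as lower by the Wald test on the centred DESeq2 values, where 2.01% of all genes were called. With GC content taken from the longest transcript instead, PSAT1 was at 0.56 (adjusted p = 1.54e-11), MTHFD2 at 0.39 (adjusted p = 0.127) and VEGFA at -0.55 (adjusted p = 0.0522), so of the 3 only PSAT1 passed under both. VEGFA has a GC content of 60.7% as the median over its transcripts and 51.3% in the longest. Centring keeps the SE as deposited and takes the median of the bin as known. In VPC-13789 against enzalutamide with DHT, PSAT1 (0.31, adjusted p = 0.00172) and STC2 (-0.39, adjusted p = 0.0234) passed with the centring, and with the longest transcript PSAT1 (adjusted p = 4.53e-06) but not STC2 (adjusted p = 0.0533), all by the Wald test on the centred DESeq2 values, with 2.36% of all genes called under the centring. PSAT1 was at 0.06 and -0.10 in these comparisons before centring, and MTHFD2 at -0.11 with VPC-13789 and DHT, its lowest group (2498 normalized counts against 2699 with DHT). The calls of both as higher therefore rest on the low values of the genes of like GC content, and for MTHFD2, and for PSAT1 against enzalutamide, the sign turned. STC2 in the DHT effect with VPC-13789 was at -0.58 after centring (adjusted p = 1.85e-05, Wald test on the centred DESeq2 values), where 3.17% of all genes were called. In the other 8 comparisons 0 of 37 genes passed with the centring, while the share of all genes called was 1.41% for DHT, 0.279% for enzalutamide with DHT, 0.00367% for enzalutamide alone, 0.451% for the DHT effect with enzalutamide, 0.0660% and 0.0916% for the interactions of enzalutamide and VPC-13789 with DHT, and 0% for the 2 comparisons of VPC-13789 without DHT. The part of GC content in these differences was not tested beyond these values.

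**Figure D4:**
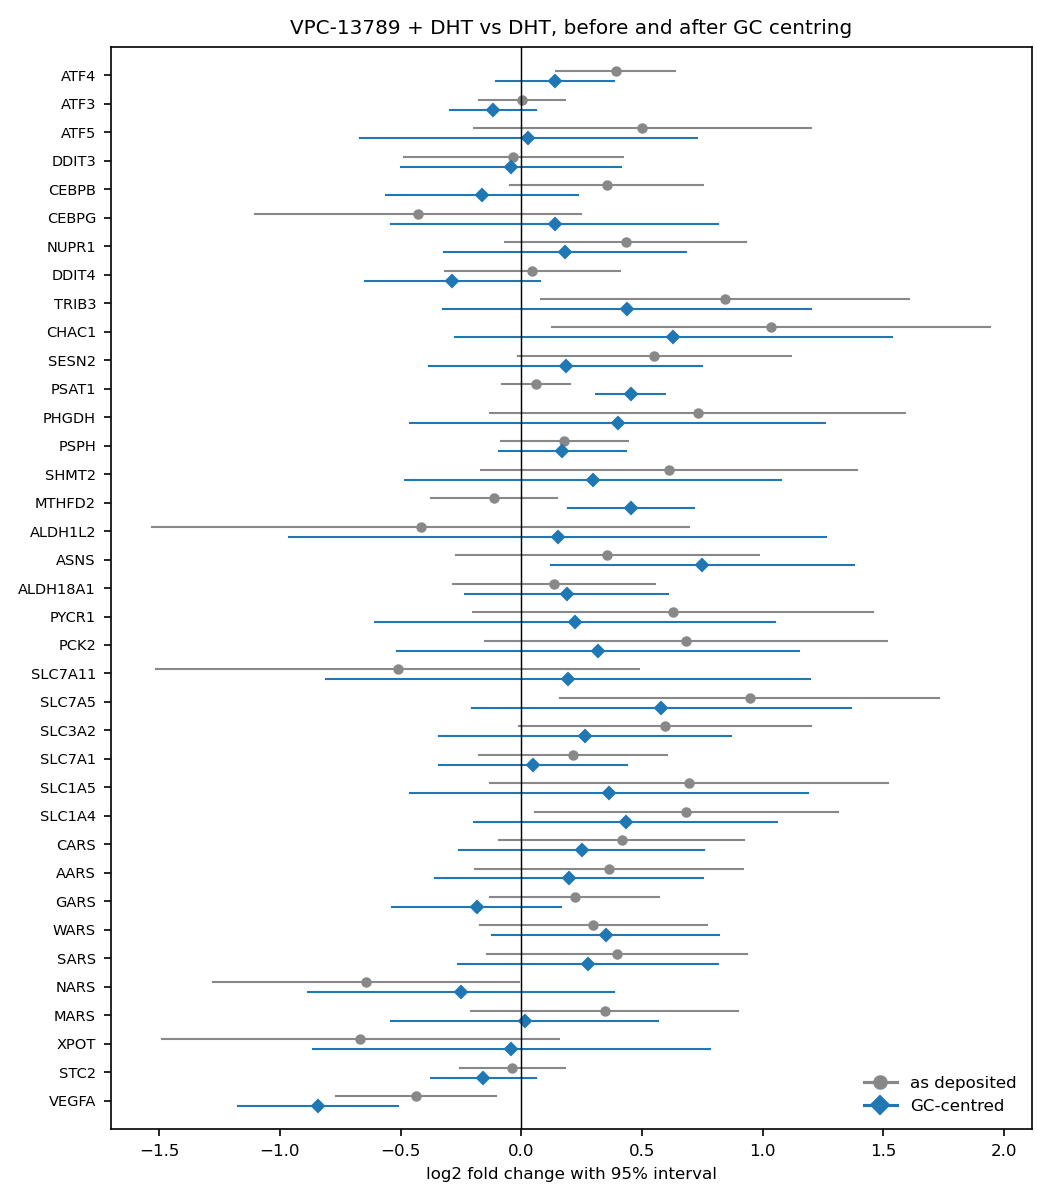
Log2 fold change with 95% interval (x axis) of each of the 37 genes for VPC-13789 with DHT against DHT, as deposited (grey circles) and after subtracting the median of genes of like GC content (blue diamonds). Most GC-rich genes move towards 0, CHAC1 from 1.04 to 0.63, while PSAT1 and MTHFD2 move to 0.45 and VEGFA to -0.84.

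The upstream arm of the pathway and other lists from general knowledge were read in the same tables. Of 16 genes for eIF2α kinases, their regulators, the eIF2α phosphatase and the exchange factor eIF2B, 0 were called in each of the 5 comparisons by DESeq2, with a median of -0.11 with VPC-13789 and DHT. Of 20 further genes linked to ATF4, 2 rose with DHT, and 1 fell with VPC-13789 and DHT. The risers were VLDLR, a lipoprotein receptor (0.88, SE 0.17 and DESeq2 adjusted p = 3.03e-05, as the authors' deposited table gives them), and HERPUD1, of endoplasmic reticulum quality control (0.72, SE 0.19, adjusted p = 0.0126). VLDLR was also the gene that fell with VPC-13789 and DHT (-0.67, with SE 0.17 and DESeq2 adjusted p = 0.0345 from the authors' deposited table), at -0.36 and an adjusted p of 0.550 after GC centring. Of 8 other cytosolic tRNA synthetases and 10 targets of ATF6 and XBP1, the other arms of the unfolded protein response, 0 were called in any of the 5 comparisons by DESeq2. Their medians with VPC-13789 and DHT were 0.20 and -0.40, and after GC centring 0.14 and -0.12. The 20 further genes linked to ATF4 had a median of 0.25 before and 0.06 after centring. For the 16 genes of the upstream arm it was -0.11 before and 0.05 after. GC centring also added calls in these lists for VPC-13789 with DHT against DHT, by the Wald test on the centred DESeq2 values. Over all genes it called 548 (2.01%), and 551 with GC content from the longest transcript. PPP1R15A, a subunit of the eIF2α phosphatase, went from -0.25 to -0.61 (adjusted p = 0.0381), CTH, the cystathionine lyase, from 0.11 to 0.57 (adjusted p = 0.00993) and FARSB, of the phenylalanine synthetase, from -0.02 to 0.55 (adjusted p = 0.0135). With the longest transcript PPP1R15A (adjusted p = 0.0405) and CTH (adjusted p = 0.0251) passed by that test, FARSB (adjusted p = 0.0519) did not, and EIF2B1, a subunit of the eIF2B exchange factor, passed at 0.27 (adjusted p = 0.000325) from 0.03 before centring.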

How the data were processed

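RNA of LNCaP cultures was sequenced on the BGISEQ-500 platform, with RNA integrity numbers of 9.5 to 10 per the labels. The submitters' processing notes name FastQC, the aligner STAR (2.6.1c), the genome GRCh38.p12, featureCounts for the counting and DESeq2 for the comparisons. Which annotation was used, whether strand was used and what was filtered is not stated in the labels. The authors deposited 5 tables, in which the average normalized count is a signal on a linear scale, the fold change and its SE are log2 values, the Wald statistic is a score, and the p-value and its adjusted form are as deposited, per the file headers. Rows that held a date where a symbol belongs (25) were left out, so 27574 genes remained. In the comparisons with DHT the authors' filter left 6418, 7488 and 12302 genes with no adjusted p, among them ALDH1L2 for VPC-13789, and such genes were not called.

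From these values the level of each gene in each group and its dispersion were recovered. The dispersion from the other 4 tables lay within 5% of that from the DHT table for all 36 genes of the program averaging at least 100. Further comparisons (6) were Wald tests on sums or differences of the log2 values, with p-values from the normal distribution and Benjamini-Hochberg (BH) adjustment over all genes. A difference between compounds used the mean of the squared SE, which takes the group variances as equal, and an interaction used their sum. The DHT effect under a compound added the squared SE of the compound's comparisons with and without DHT and subtracted that of DHT against vehicle. Intervals of 95% cover the deposited SE only. GC content was the median over basic transcripts of GENCODE 29 (27281 genes), limited to protein-coding transcripts for protein-coding genes. GC centring subtracted the median of nuclear genes in 20 bins. Promoter windows came from RefSeq. The steps were tested on simulated data. Python 3.11.15, pandas 2.3.3, numpy 2.4.6, scipy 1.17.1 and matplotlib 3.10.9 were used.

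Some marker and control genes are not reported here. The genes, lists and tests were chosen with earlier results of these data known, and GC content from the longest transcript was added as an alternative after seeing the data. The rule for named genes took genes called in any comparison, the gene of highest absolute statistic per role and comparison, ATF4, DDIT3, TRIB3, ASNS, CHAC1 and SESN2, 20 in all. The other genes with a value were named to account for the whole list. Alternatives were GC centring, median centring, another set of genes in the BH adjustment, another SE for differences between compounds and a minimum level.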

Additional observations from a re-analysis of the deposited data

How the results depend on the processing

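Of 57 counts of called genes recomputed under an alternative, 51 stayed within 1.5 times of the value given. Except for the DHT effect with VPC-13789, the value given was 0, so such a count stayed only if it was again 0. BH over all genes with a p-value repeats the main adjustment for the 6 derived comparisons, so those counts could not move. With BH over genes averaging at least 10, 1 gene (VEGFA) was called for DHT against vehicle in place of 0, at a log2 change of 0.55. Over all genes 396 were called under that setting. GC centring called 3 genes for VPC-13789 with DHT against DHT and 2 for VPC-13789 against enzalutamide with DHT, and with the longest transcript 1 each, in place of 0. Over all genes it called 548 and 644 in these comparisons, and 551 and 622 with the longest transcript. For the DHT effect with VPC-13789 the longest transcript called 2 in place of 1, adding PSAT1 (0.25, adjusted p = 0.0227 by a Wald test on the centred DESeq2 values). The cause was not tested. The call of STC2 was kept under all 5 alternatives run, its adjusted p ranging from 1.85e-05 to 0.0464. Of these 5, BH over all genes with a p-value is the adjustment already used for derived comparisons. It gives the same 0.0464 and could not change the call. Of 44 medians recomputed, 4 changed sign. Another SE for the difference between compounds changed no count, and for 61 single-gene values (ASNS, ATF4 and MTHFD2 among them) the 2 forms of GC centring gave 6 changes of sign in all, each in those 3 genes and uncalled before and after. Outside those 61, centring turned MTHFD2 with VPC-13789 and DHT (-0.11 to 0.45) and PSAT1 against enzalutamide (-0.10 to 0.31) into calls of the opposite sign.

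No paired analysis was possible because the tables used hold the authors' comparisons and no values per sample. For the same reason no replicate was left out in turn. Precision is limited: 20 of the 37 genes had an interval inside 2-fold for VPC-13789 with DHT against DHT.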
